A study of Mus musculus with 18 samples.

Results

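The genes of the TGF beta and BMP pathways were followed here across the 9 groups of a study of mouse fibroblasts that lose the histone methyltransferase gene Ezh2. They were chosen by name: 47 genes for ligands, receptors, antagonists and matrix regulators, Smad proteins and Id proteins. The choice was made with earlier results of these data known. A gene was measured by the probe set that names only that gene, the brightest on average where a gene has several. By this rule 43 of the 47 genes were measured, of 18820 measured genes in all. Tgfbr2, Fst and Fstl3 were named only on probe sets that carry several genes, and Chrd on none, so these 4 are not described.

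Total RNA of each group was hybridised to 2 Affymetrix Mouse Gene ST arrays, 18 in all. The cells, called C2 iMEFs in the labels, are c-Myc transformed mouse embryonic fibroblasts. The methods describe a clone obtained by limiting dilution of Ezh2 flox/Δ;ROSA26-CreERT2 cells, with 1 deleted and 1 floxed copy of Ezh2. Every group, controls included, thus derives from 1 clone and carries the c-Myc retrovirus, the tamoxifen-dependent Cre and the deleted copy. In the time course, cells were taken after ethanol vehicle and 5, 18 and 32 days after tamoxifen, which removes the floxed copy. In the rescue experiment, the Ezh2 post-rescue cells received Flag-Ezh2 by retrovirus after deletion, the Ezh1 pre-rescue and Ezh2 pre-rescue cells received Flag-Ezh1 or Flag-Ezh2 before deletion, the Ezh2 null cells are labelled Ezh2 -/- with no rescue, and the control cells are labelled Ezh2 WT. The study calls the 2 arrays of a group biological replicates. The sources used here do not say how the replicates were raised, or whether the Ezh2 null and control cells carried an empty vector. Fewer cells of one kind and less RNA per cell cannot be told apart in bulk RNA.

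TGF beta and BMP proteins are secreted as dimers and are held in check outside the cell by antagonists such as noggin and gremlin and by matrix proteins such as the latent TGF beta binding proteins. They bind pairs of type I and type II receptor kinases, which phosphorylate receptor Smads, Smad2 and Smad3 in the TGF beta and activin branch and Smad1, Smad5 and Smad9 in the BMP branch. These join Smad4 in the nucleus, and among the genes they switch on are the inhibitory Smads, Smad6 and Smad7, and the Id genes. In fibroblasts, TGF beta is best known for driving collagen and smooth muscle actin, and BMP for driving bone and cartilage fates.

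The arrays of the 2 experiments had different scales, with median log2 intensities over genes of 5.50 to 5.70 in the time course and 6.50 to 6.66 in the rescue experiment, so levels are set against each other only within an experiment. Replicates correlated at 0.998 to 0.999 in the time course and 0.994 to 0.998 in the rescue experiment over all genes. The Ezh2 probe set summarises probes along the whole transcript, and which of them lie in the deleted part is not given in the sources used here, so it does not check the deletion: it lay at 9.63 to 9.81 on the day 18 and day 32 arrays and 9.37 to 9.43 on the vehicle arrays, and at 11.84 to 12.55 in the Ezh2 rescues against 10.36 to 10.56 in control cells. Groups are therefore named by their labels throughout. Ezh1 lay at 11.68 to 11.85 in the Ezh1 pre-rescue cells and at 9.19 to 9.84 in the other groups of that experiment. Of 12 fibroblast markers, 9 to 11 lay above the array median on both arrays of every group, while none of 7 endothelial and 8 epithelial markers and 1 or 2 of 8 blood markers did.

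The promoters of 5 of the genes that the results turn on are shown because these genes were among those with the widest changes in the time course or the rescue experiment. Each window runs from 250 bases before to 50 after a RefSeq transcription start (build GRCm38.p6), read 5′ to 3′ on the gene's own strand. A window was listed for 27 of the 43 genes. Capitals mark matches, on either strand, to the motifs searched. GGCGCC is a motif bound by BMP receptor Smads. GTCTAGAC is the palindromic Smad binding element. CAGACA is a form of the shorter Smad box. TATAAA is the core promoter element that binds TBP, the TATA binding protein.

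Bmpr1b: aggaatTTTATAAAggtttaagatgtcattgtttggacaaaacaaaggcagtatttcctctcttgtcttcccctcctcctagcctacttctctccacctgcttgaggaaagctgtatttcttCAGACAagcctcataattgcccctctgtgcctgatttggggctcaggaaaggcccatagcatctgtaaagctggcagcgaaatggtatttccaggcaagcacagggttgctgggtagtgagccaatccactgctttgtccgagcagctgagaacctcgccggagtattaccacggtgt
Tgfbr1: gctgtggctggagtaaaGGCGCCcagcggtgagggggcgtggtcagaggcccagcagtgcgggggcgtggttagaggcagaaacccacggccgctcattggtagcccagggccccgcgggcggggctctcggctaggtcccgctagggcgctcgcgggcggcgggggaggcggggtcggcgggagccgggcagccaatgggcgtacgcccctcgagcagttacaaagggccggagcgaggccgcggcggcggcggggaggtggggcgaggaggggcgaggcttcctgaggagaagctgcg
Grem1: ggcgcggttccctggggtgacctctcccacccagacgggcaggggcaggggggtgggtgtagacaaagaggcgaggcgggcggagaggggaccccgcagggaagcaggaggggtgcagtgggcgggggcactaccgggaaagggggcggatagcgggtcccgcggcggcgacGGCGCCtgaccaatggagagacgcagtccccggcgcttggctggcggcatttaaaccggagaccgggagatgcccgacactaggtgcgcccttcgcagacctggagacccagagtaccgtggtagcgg
Smad9: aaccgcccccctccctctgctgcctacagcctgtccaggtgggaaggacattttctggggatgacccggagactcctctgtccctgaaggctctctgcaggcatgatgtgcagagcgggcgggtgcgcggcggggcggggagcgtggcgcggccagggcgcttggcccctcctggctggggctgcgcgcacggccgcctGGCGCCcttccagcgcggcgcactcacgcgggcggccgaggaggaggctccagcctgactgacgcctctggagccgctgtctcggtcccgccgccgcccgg
Id4: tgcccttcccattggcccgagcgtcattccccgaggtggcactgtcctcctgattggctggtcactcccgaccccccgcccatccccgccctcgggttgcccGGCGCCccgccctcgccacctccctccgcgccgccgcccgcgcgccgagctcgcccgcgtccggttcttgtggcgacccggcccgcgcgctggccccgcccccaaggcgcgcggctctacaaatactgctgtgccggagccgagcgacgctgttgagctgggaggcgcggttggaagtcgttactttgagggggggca

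The Bmpr1b window lies at chr3:141982215-141982514 on the minus strand, inside the gene (chr3:141837135-142169585), and is the most upstream of 3 listed for it. The Tgfbr1 window lies at chr4:47352972-47353271 on the plus strand and is the most upstream of 2. Grem1 is at chr2:113758599-113758898 on the minus strand, Smad9 at chr3:54755332-54755631 on the plus strand and Id4 at chr13:48260866-48261165 on the plus strand. Bmpr1b stood apart in base composition, with 5 CG pairs and 48.3% G and C, close to the medians of 7 CG pairs and 52.7% over all 32851 windows of the table. The other 4 windows held 34 (Tgfbr1), 28 (Grem1), 31 (Smad9) and 39 (Id4) CG pairs. Each of those 4 held GGCGCC, and 9 of the 27 windows did, against 11.9% of all windows. The windows of Tgfb1, Tgfb2, Bmp4, Bmp6 and Ltbp1 held no GGCGCC, though these genes also changed by 2-fold or more in the time course. In Bmpr1b the capital run at the left holds 2 overlapping TATAAA matches, 1 on each strand, and CAGACA follows further right. TATAAA was found in 4 of the 27 windows (13.6% of all windows). The Smad box form was found in 3 (21% of all), and the palindromic element in 1, that of Smad6 (0.213% of all). Windows with 25 or more CG pairs were 16 of the 27, against 18.4% of all windows. A match describes these letters only.

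After tamoxifen, Bmpr1b, Tgfbr1, Smad9, the inhibitory Smad genes Smad6 and Smad7 and the ligand gene Bmp4 were above vehicle at all 3 times and Bambi below it. Other ligand genes moved in different directions, and several of them turned between day 5 and day 18. A gene was said to have risen or fallen where its Benjamini-Hochberg adjusted p over all 18820 genes was below 0.05 in limma's moderated two-sided test. At 5 days after tamoxifen 12 of the 43 genes stood above vehicle and 2 below by this test, where 11% of all genes rose and 5.72% fell (16.8% together). After 18 days the counts were 13 up and 8 down (15.2% and 10.5% of all genes, 25.7% together). After 32 days they were 10 up and 7 down (18.4% and 14.2% of all genes, 32.7% together), and the share of pathway genes that changed, 39.5%, lay near that of all genes. Their median log2 changes were 0.07, 0.01 and 0.00 at the 3 times, against -0.01, -0.02 and -0.02 over all genes, and their median sizes of change 0.13, 0.23 and 0.20, against 0.12, 0.15 and 0.16. With each array centred on its median, which moved the median change of all genes to -0.15, -0.18 and -0.14, the splits were 11 up and 5 down, 11 up and 12 down, and 10 up and 10 down. These are 16, 23 and 20 of the 43 genes. Among all genes, 28.4%, 42.3% and 40% changed under this centring, so the background shares rose as well. Of the 43 genes, 27 lay above the array median on every array of the time course, so genes with little signal lower the shares over all genes more. Without the lowest 30% of genes, 26.8%, 38.9% and 48.4% of the genes kept changed at the 3 times, and 16, 21 and 19 pathway genes did. How many of the 43 that filter kept is not given here. In all, 27 of the 43 genes changed in at least 1 of the 5 comparisons of the time course, 9 of them by 2-fold or more. The like shares over all 18820 genes are not given here, so these 2 counts do not set the pathway genes apart from other genes.

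**Figure D1:**
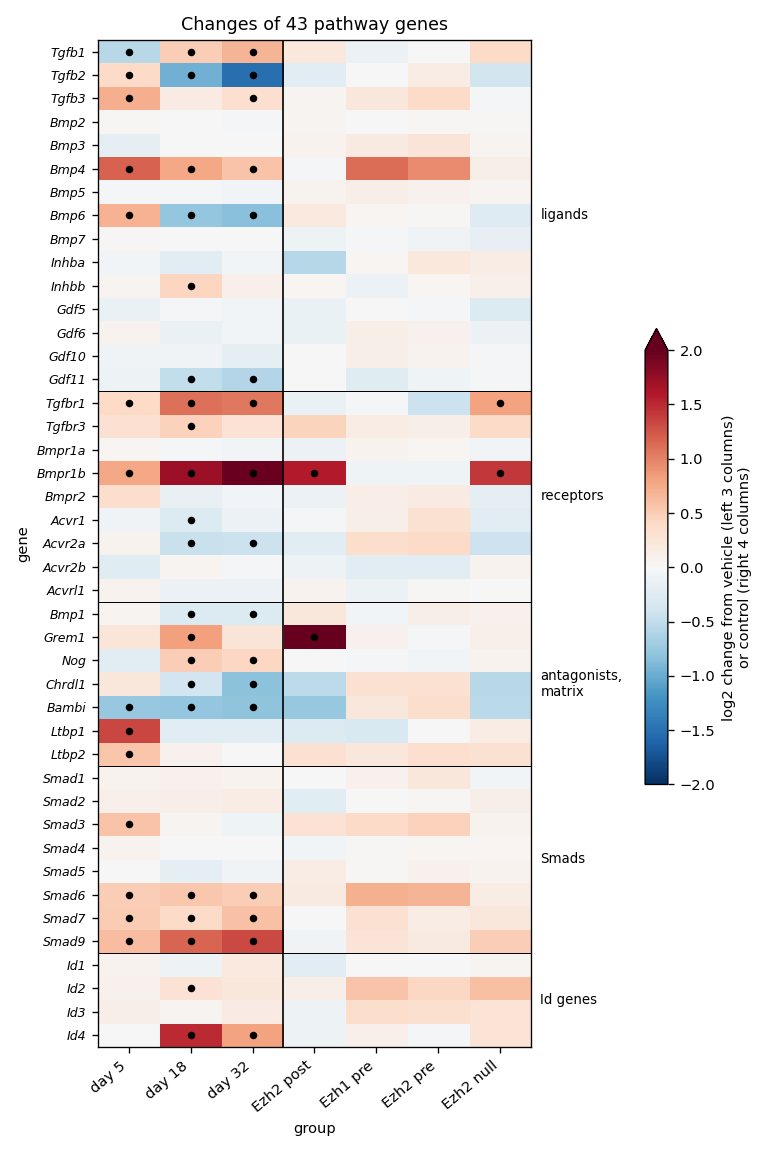
Log2 change of each of the 43 genes (vertical axis, by role) from vehicle at day 5, 18 and 32 (left 3 columns) and from control in the 4 other rescue groups (right 4 columns). Red is higher, blue lower, the colour ends at 2, and a dot marks an adjusted p below 0.05. Bmpr1b and Tgfbr1 carry dots at all 3 times and in Ezh2 null cells, and Grem1 in Ezh2 post-rescue cells, at 2.37, lies past the end of the scale.

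Among the 15 ligand genes, 4 rose and 1 fell at day 5, and 3 rose and 3 fell at both day 18 and day 32. Bmp4, a BMP ligand of mesenchyme, measured 9.57 and 10.06 (log2 intensity) in vehicle-treated cells, 11.00 and 10.99 after 5 days, 10.57 and 10.60 after 18 days, and 10.60 and 10.18 after 32 days. Every tamoxifen array lay above both vehicle arrays, and the vehicle arrays stood 0.49 apart, more than the pair of any later time. Bmp4 rose by 1.18 ± 0.17 (SE) at day 5 (2.27-fold, adjusted p = 0.00136), by 0.77 ± 0.17 at day 18 (adjusted p = 0.0077) and by 0.57 ± 0.17 at day 32 (adjusted p = 0.0243). The day 18 call was lost without vehicle replicate 1 (adjusted p = 0.0524), and the day 32 call without vehicle replicate 1 or day 32 replicate 1 (adjusted p at most 0.181).

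Bmp6, another BMP ligand, went up and then below its starting level. It measured 5.76 and 5.77 in vehicle-treated cells, 6.47 and 6.46 after 5 days, 5.04 and 4.93 after 18 days, and 4.95 and 4.92 after 32 days, with no overlap between day 5, vehicle and the late arrays. The rise at day 5 was 0.70 ± 0.07 (adjusted p = 0.000262), and it fell by 0.78 ± 0.07 at day 18 and by 0.83 ± 0.07 at day 32 (adjusted p = 5.48e-05 and 2.39e-05). From day 18 on it lay below the array median.

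The 3 TGF beta ligand genes each had a course of their own. Tgfb1 measured 5.69 and 5.91 in vehicle-treated cells, 5.19 and 5.30 after 5 days, 6.16 and 6.43 after 18 days, and 6.43 and 6.54 after 32 days. It was thus lower than vehicle on both arrays of day 5 and higher on all 4 late arrays, with changes of -0.55 ± 0.11, 0.49 ± 0.11 and 0.68 ± 0.11 (adjusted p = 0.0092, 0.00986 and 0.00114). The call at day 5 was lost without vehicle replicate 2 or day 5 replicate 1 (adjusted p at most 0.0697), and that at day 18 without vehicle replicate 1 or day 18 replicate 2 (at most 0.0811).

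Tgfb2 moved the other way. It measured 10.39 and 10.06 in vehicle-treated cells, 10.59 and 10.64 after 5 days, 9.31 and 9.20 after 18 days, and 8.70 and 8.74 after 32 days, and the late arrays lay below all others. It fell by 0.97 ± 0.11 at day 18 (adjusted p = 0.000151) and by 1.51 ± 0.11 at day 32 (2.84-fold, adjusted p = 7.04e-06). Its rise at day 5, 0.39 ± 0.11 (adjusted p = 0.0352), was lost in 9 of 14 alternatives (adjusted p at most 0.154), among them both other scalings and each of 7 left-out arrays, all but vehicle replicate 1. Tgfb3 measured 8.39 and 8.47 in vehicle-treated cells, 9.14 and 9.18 after 5 days, 8.57 and 8.60 after 18 days, and 8.81 and 8.73 after 32 days, and rose at day 5 (0.73 ± 0.07, adjusted p = 0.000216) and day 32 (0.34 ± 0.07, adjusted p = 0.00542).

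Gdf11, a ligand of the activin type, measured 7.97 and 7.56 in vehicle-treated cells, 7.60 and 7.73 after 5 days, 7.30 and 7.25 after 18 days, and 7.13 and 7.24 after 32 days. Both late pairs lay below every earlier array, with falls of 0.49 ± 0.12 at day 18 and 0.58 ± 0.12 at day 32 (adjusted p = 0.0173 and 0.00541). The day 18 call was lost without vehicle replicate 1 or either day 18 array (adjusted p at most 0.0891). Inhbb, the activin beta B subunit, measured 4.21 and 4.30 in vehicle-treated cells, 4.37 and 4.25 after 5 days, 4.62 and 4.76 after 18 days, and 4.41 and 4.31 after 32 days, and rose at day 18 alone (0.44 ± 0.09, adjusted p = 0.00457), below the array median throughout. Bmp2, Bmp3, Bmp5, Bmp7, Gdf5, Gdf6, Gdf10 and Inhba passed the test at no time, and of these all but Inhba lay below the array median on every array.

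Of the 9 receptor genes, 2 rose and none fell at day 5, 3 rose and 2 fell at day 18, and 2 rose and 1 fell at day 32. Bmpr1b, a type I BMP receptor, measured 4.04 and 4.42 in vehicle-treated cells, 5.02 and 4.99 after 5 days, 5.76 and 6.11 after 18 days, and 6.17 and 6.25 after 32 days. Each time lay wholly above the one before, and the gene passed from below the array median on the vehicle and day 5 arrays to above it later. Its changes from vehicle were 0.77 ± 0.14, 1.71 ± 0.14 and 1.98 ± 0.14 (adjusted p = 0.00472, 2.34e-05 and 6.29e-06), a 3.95-fold rise by day 32. Day 32 exceeded day 18 by 0.27 ± 0.14, which did not pass the test (adjusted p = 0.328).

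Tgfbr1, the type I TGF beta receptor, measured 7.09 and 7.21 in vehicle-treated cells, 7.61 and 7.49 after 5 days, 8.21 and 8.29 after 18 days, and 8.21 and 8.20 after 32 days. The 3 levels did not overlap up to day 18, and the late pairs overlapped each other. It rose by 0.40 ± 0.08 at day 5 (adjusted p = 0.00841, at most 0.0652 without vehicle replicate 1 or day 5 replicate 1), by 1.10 ± 0.08 at day 18 (2.14-fold, adjusted p = 1.25e-05) and by 1.05 ± 0.08 at day 32 (adjusted p = 1.07e-05). Acvr2a, an activin type II receptor, measured 10.64 and 10.55 in vehicle-treated cells, 10.73 and 10.62 after 5 days, 10.18 and 10.12 after 18 days, and 10.17 and 10.18 after 32 days. It fell by 0.45 ± 0.08 and 0.42 ± 0.08 at the late times (adjusted p = 0.00217 and 0.00209).

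Another 2 receptor genes passed at day 18 only: Tgfbr3, the co-receptor betaglycan, at 0.46 ± 0.10 (adjusted p = 0.0082), and Acvr1, a type I BMP receptor, at -0.28 ± 0.08 (adjusted p = 0.0229). The call on Acvr1 was lost without vehicle replicate 1 or either day 18 array (adjusted p at most 0.118). Bmpr1a and Bmpr2, the other BMP receptors of type I and type II, ranged from 9.82 to 10.00 and from 10.24 to 10.84 over the 8 arrays and did not pass against vehicle, and neither did Acvr2b or Acvrl1.

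**Figure D2:**
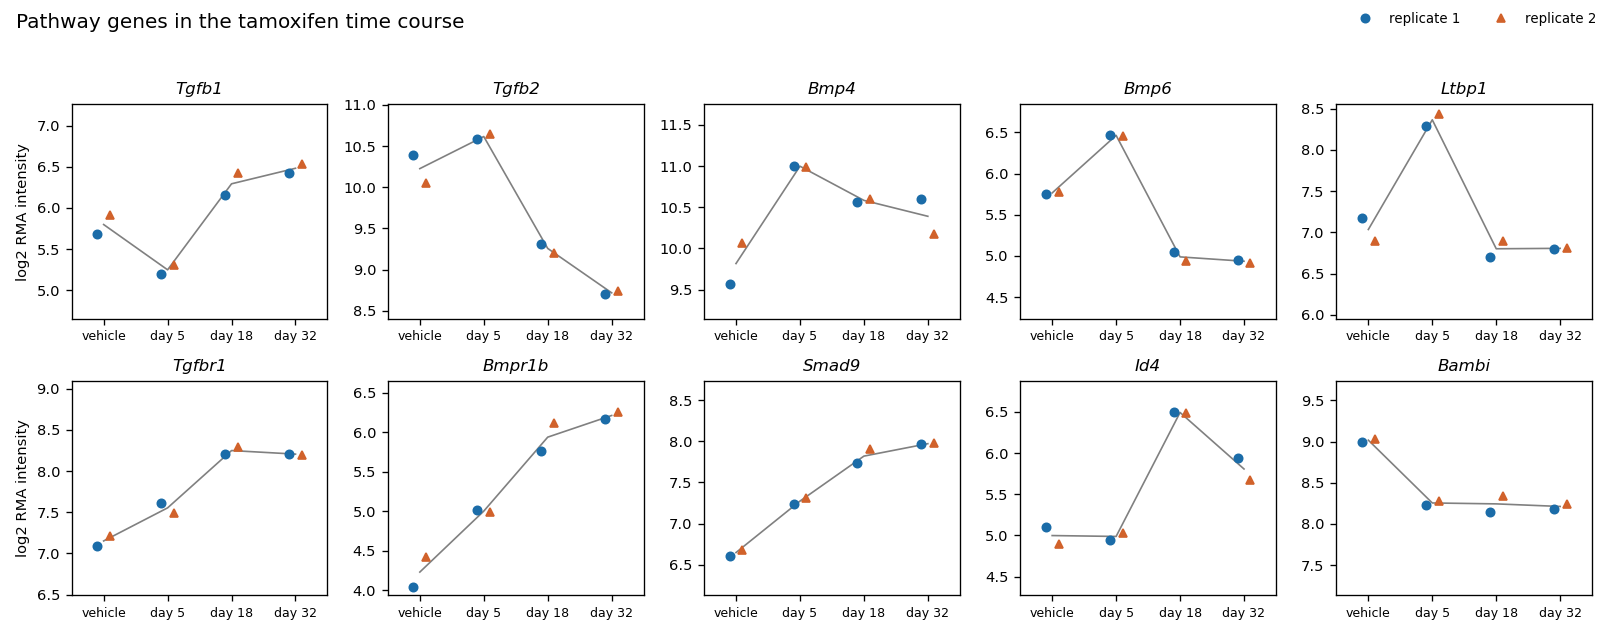
Log2 RMA intensity (vertical axes) of 10 pathway genes on each array of the time course (horizontal axes: vehicle, then days after tamoxifen). Circles are replicate 1, triangles replicate 2, and lines join the means of 2 arrays. Bmp6 and Ltbp1 peak at day 5, Id4 at day 18, and Bmpr1b and Smad9 are highest at day 32, at 6.17 and 6.25 and at 7.96 and 7.98.

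Of the 7 antagonist and matrix genes, 2 rose and 1 fell at day 5, 2 rose and 3 fell at day 18, and 1 rose and 3 fell at day 32. Ltbp1, which ties latent TGF beta to the matrix, measured 7.18 and 6.89 in vehicle-treated cells, 8.29 and 8.44 after 5 days, 6.70 and 6.90 after 18 days, and 6.80 and 6.81 after 32 days. The day 5 pair lay above all other arrays, a rise of 1.33 ± 0.11 (2.52-fold, adjusted p = 7.96e-05), and the late times, at -0.23 each, did not pass. Ltbp2, a related matrix protein, measured 7.21 and 7.24 in vehicle-treated cells, 7.69 and 7.86 after 5 days, 7.33 and 7.27 after 18 days, and 7.17 and 7.29 after 32 days, and it also rose at day 5 alone (0.55 ± 0.08, adjusted p = 0.00214).

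Bambi, a decoy receptor that lacks the kinase, measured 9.00 and 9.04 in vehicle-treated cells, 8.23 and 8.28 after 5 days, 8.15 and 8.34 after 18 days, and 8.18 and 8.24 after 32 days. All 6 tamoxifen arrays lay at a like level below both vehicle arrays, 0.76 to 0.80 below vehicle (-0.76 ± 0.08, -0.77 ± 0.08 and -0.80 ± 0.08, adjusted p = 0.000362, 0.000128 and 6.75e-05). Chrdl1, a secreted BMP antagonist, measured 9.67 and 9.69 in vehicle-treated cells, 9.96 and 9.86 after 5 days, 9.33 and 9.28 after 18 days, and 8.83 and 8.91 after 32 days. It fell by 0.38 ± 0.07 and then by 0.81 ± 0.07 below vehicle (adjusted p = 0.00491 and 3.29e-05).

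Nog, which encodes the BMP antagonist noggin, measured 4.03 and 3.84 in vehicle-treated cells, 3.71 and 3.72 after 5 days, 4.51 and 4.34 after 18 days, and 4.43 and 4.29 after 32 days. It lay below the array median throughout and rose by 0.49 ± 0.10 at day 18 and by 0.42 ± 0.10 at day 32 (adjusted p = 0.00443 and 0.00724, the day 32 call lost without day 32 replicate 1, adjusted p = 0.0626). Grem1, the antagonist gremlin, measured 4.09 and 4.19 in vehicle-treated cells, 4.66 and 4.09 after 5 days, 5.00 and 4.93 after 18 days, and 4.19 and 4.61 after 32 days. Also below the array median throughout, it rose at day 18 only (0.82 ± 0.18, adjusted p = 0.00832), a call lost without vehicle replicate 1 (adjusted p = 0.0571). Bmp1, a protease that cleaves chordin and procollagens, changed by -0.28 ± 0.09 and -0.27 ± 0.09 at day 18 and day 32 (adjusted p = 0.0486 and 0.042), calls lost in 8 and 5 of 14 alternatives (adjusted p at most 0.229 and 0.243).

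Among the 8 Smad genes, 4 rose at day 5 and 3 at each late time, and none fell. Smad9, a receptor Smad of the BMP branch, measured 6.61 and 6.69 in vehicle-treated cells, 7.24 and 7.31 after 5 days, 7.74 and 7.90 after 18 days, and 7.96 and 7.98 after 32 days. Each time lay above the one before, with changes of 0.62 ± 0.08, 1.17 ± 0.08 and 1.32 ± 0.08 (adjusted p = 0.00089, 8.62e-06 and 3.05e-06), 2.50-fold by day 32. Smad1 and Smad5, the other receptor Smads of that branch, stayed between 7.17 and 7.44 and between 9.01 and 9.26 and did not pass.

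The inhibitory Smads rose early. Smad6 measured 7.56 and 7.81 in vehicle-treated cells, 8.14 and 8.23 after 5 days, 8.25 and 8.21 after 18 days, and 8.29 and 8.06 after 32 days. All 6 tamoxifen arrays lay above both vehicle arrays, at 0.49 ± 0.11, 0.54 ± 0.11 and 0.49 ± 0.11 (adjusted p = 0.0123, 0.00475 and 0.0062). The day 5 call was lost without vehicle replicate 1 or day 5 replicate 2 (adjusted p at most 0.083), and the day 32 call without day 32 replicate 1 (0.0576).

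Smad7 measured 6.38 and 6.72 in vehicle-treated cells, 6.98 and 7.14 after 5 days, 6.93 and 6.95 after 18 days, and 7.24 and 7.03 after 32 days, again with no overlap with vehicle. Its changes were 0.51 ± 0.12, 0.38 ± 0.12 and 0.58 ± 0.12 (adjusted p = 0.0183, 0.0438 and 0.00444). The call at day 18 was lost in 8 of 14 alternatives (adjusted p at most 0.257), and the call at day 5 without vehicle replicate 1 or day 5 replicate 2 (at most 0.122). Smad3, a receptor Smad of the TGF beta branch, measured 8.46 and 8.54 in vehicle-treated cells, 9.04 and 9.11 after 5 days, 8.59 and 8.51 after 18 days, and 8.43 and 8.39 after 32 days, so that it rose at day 5 alone (0.58 ± 0.07, adjusted p = 0.000883). Smad2 and Smad4, the shared partner Smad, did not pass at any time.

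Of the 4 Id genes, which encode inhibitors of basic helix-loop-helix factors, none passed at day 5, 2 rose at day 18 and 1 rose at day 32. Id4 measured 5.11 and 4.89 in vehicle-treated cells, 4.94 and 5.03 after 5 days, 6.50 and 6.49 after 18 days, and 5.94 and 5.67 after 32 days. It did not pass at day 5, was highest at day 18 (1.49 ± 0.11, 2.82-fold, adjusted p = 1.08e-05) and lay between at day 32 (0.81 ± 0.11, adjusted p = 0.000309). Id2 changed by 0.28 ± 0.08 at day 18 (adjusted p = 0.0222), a call lost under median centring and without vehicle replicate 1 or either day 18 array (adjusted p at most 0.173). Id1 and Id3 ranged from 10.74 to 11.17 and from 9.11 to 9.34 and did not pass.

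Set against day 5, 9 of the 43 genes were higher and 11 lower at day 18 by the same test (15.6% and 16.1% of all genes, 31.7% together). Id4 (1.50 ± 0.11), Tgfb1 (1.04 ± 0.11), Bmpr1b (0.94 ± 0.14), Nog (0.71 ± 0.10) and Tgfbr1 (0.70 ± 0.08) rose most, and Ltbp1 (-1.56 ± 0.11), Bmp6 (-1.47 ± 0.07), Tgfb2 (-1.36 ± 0.11), Chrdl1 (-0.61 ± 0.07) and Tgfb3 (-0.57 ± 0.07) fell most, with adjusted p from 7.91e-07 for Bmp6 to 0.000622 for Bmpr1b. Between day 18 and day 32, 1.4% of all genes rose and 2.75% fell (4.15% together), and of the pathway genes 3 fell and none rose: Id4 (-0.69 ± 0.11), Tgfb2 (-0.54 ± 0.11) and Chrdl1 (-0.44 ± 0.07), with adjusted p = 0.00976, 0.0253 and 0.0139. The falls of Tgfb2 and Chrdl1 were lost without any 1 of the 4 arrays compared and that of Id4 without 3 of them, all but day 32 replicate 1 (adjusted p at most 0.18, 0.114 and 0.0728).

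Of 7 measured target genes of BMP beside the Id genes, none passed at day 5, 5 rose and none fell at day 18, and 5 rose and none fell at day 32. Of the 5 at day 18, Msx2 (0.38) and Atoh8 (0.23) were lost without vehicle replicate 2 or either day 18 array, which left 3, while the 5 at day 32 were kept whichever array was left out. The median changes of the 7 were 0.06, 0.38 and 0.49, where those over all genes were -0.01, -0.02 and -0.02. Hey1, a transcriptional repressor, measured 4.90 and 3.95 in vehicle-treated cells, 5.13 and 5.10 after 5 days, 7.17 and 6.68 after 18 days, and 6.53 and 6.35 after 32 days. The vehicle arrays stood 0.95 apart, yet all late arrays lay above every earlier one, at 2.51 ± 0.26 (5.68-fold, adjusted p = 0.000103) and 2.02 ± 0.26 (adjusted p = 0.000263). Dlx5, a homeobox gene of bone formation, measured 4.32 and 4.26 in vehicle-treated cells, 4.57 and 4.44 after 5 days, 5.83 and 6.23 after 18 days, and 5.19 and 5.68 after 32 days, rising by 1.74 ± 0.16 and 1.15 ± 0.16 at the late times (adjusted p = 6.19e-05 and 0.000531). Msx1, another homeobox gene, measured 4.73 and 4.67 in vehicle-treated cells, 4.84 and 4.69 after 5 days, 6.20 and 6.35 after 18 days, and 5.99 and 5.87 after 32 days, rising by 1.57 ± 0.09 and 1.23 ± 0.09 (adjusted p = 2.54e-06 and 7.59e-06).

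Among target genes of TGF beta more fell than rose at the late times. Of 14 measured, 4 rose and 1 fell at day 5, 1 rose and 7 fell at day 18, and 2 rose and 6 fell at day 32, with median changes of 0.10, -0.17 and -0.15. Among all genes, 11%, 15.2% and 18.4% rose and 5.72%, 10.5% and 14.2% fell at the 3 times. The medians over all genes were -0.01, -0.02 and -0.02. Of the 7 falls at day 18, 3 remained without vehicle replicate 2, which ended those of Ccn2, Cnn1, Col3a1 and Snai2, and 4 without either day 18 array, while all 6 falls at day 32 were kept whichever array was left out. Postn, a matrix protein, measured 11.49 and 11.50 in vehicle-treated cells, 12.32 and 12.24 after 5 days, 10.62 and 10.53 after 18 days, and 10.21 and 10.01 after 32 days, so that it was highest at day 5 and then fell below vehicle by 0.92 ± 0.09 and 1.38 ± 0.09 (adjusted p = 5.85e-05 and 3.57e-06). Acta2, smooth muscle actin, fell by 0.45 ± 0.09 and 0.69 ± 0.09 (adjusted p = 0.00387 and 0.000204), and Fn1, fibronectin, by 0.54 ± 0.07 and 0.46 ± 0.07 (adjusted p = 0.000378 and 0.000719). Snai1, a repressor of epithelial genes, rose at day 32 (0.71 ± 0.08, adjusted p = 0.000166). Other targets in the list took other courses. Tgfbi measured 11.24 and 11.25 in vehicle-treated cells, 10.40 and 10.38 after 5 days, and 11.14 and 11.17 after 32 days. Pmepa1 measured 8.71 and 9.32, then 9.88 and 9.83, and 9.70 and 9.62 at these times. Col1a1 measured 7.29 and 7.17 in vehicle-treated cells, 7.89 and 8.13 after 5 days, 7.78 and 7.80 after 18 days, and 7.24 and 7.40 after 32 days.

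Of 55 further pathway genes, 6 rose and 4 fell at day 5, 2 rose and 9 fell at day 18, and 2 rose and 10 fell at day 32, with median changes of 0.02, -0.05 and -0.08. The shares that changed, 18.2%, 20% and 21.8%, lay near that of all genes at day 5 (16.8%) and below it at day 18 and day 32 (25.7% and 32.7%). Of the 10 calls at day 5, 6 remained without day 5 replicate 2, and of the 11 at day 18, 6 remained without day 18 replicate 2. Fmod, fibromodulin, a matrix proteoglycan that binds TGF beta, measured 9.54 and 10.00 in vehicle-treated cells, 9.99 and 10.07 after 5 days, 8.04 and 8.19 after 18 days, and 8.07 and 7.83 after 32 days, a change of -1.66 ± 0.14 and -1.82 ± 0.14 at the late times (adjusted p = 3.43e-05 and 1.25e-05). Ltbp3, a relative of Ltbp1, rose at day 5 (0.69 ± 0.11, adjusted p = 0.0033) and fell at day 18 (-0.56 ± 0.11, adjusted p = 0.00572). Tgif1, a Smad corepressor, and Rgmb, a BMP co-receptor, fell at both late times, by 0.65 ± 0.07 and 0.78 ± 0.07 at day 32 (adjusted p = 7.94e-05 and 4.46e-05). Cer1, a secreted antagonist of Nodal and BMP, fell at day 32 (-1.35 ± 0.10, adjusted p = 7.58e-06), and Tll1, a protease related to Bmp1, rose by 0.56 ± 0.10 and 0.80 ± 0.10 (adjusted p = 0.00229 and 0.000178).

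The marker lists moved over the same times. The mean of 12 fibroblast markers, 4 of which (Col1a1, Col1a2, Col3a1 and Postn) are also in the TGF beta target list, was 8.88 to 8.89 with vehicle, 9.29 to 9.35 after 5 days, 8.42 to 8.49 after 18 days and 8.09 to 8.15 after 32 days. At day 32, 1 of the 12 rose and 6 fell (18.4% and 14.2% of all genes), with a median change of -0.30. The mean leaned on a few genes: from vehicle to day 32, Lum went from 7.54 and 7.84 to 4.00 and 4.23. Over the same time Dcn went from 10.92 and 10.93 to 8.01 and 8.06, while Fap went from 4.47 and 4.06 to 4.96 and 4.90. The mean of 9 proliferation markers was 9.44 to 9.54 with vehicle, 9.24 to 9.26 after 5 days, 10.30 after 18 days and 10.42 to 10.46 after 32 days. Their part in the changes above was not tested.

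**Figure D3:**
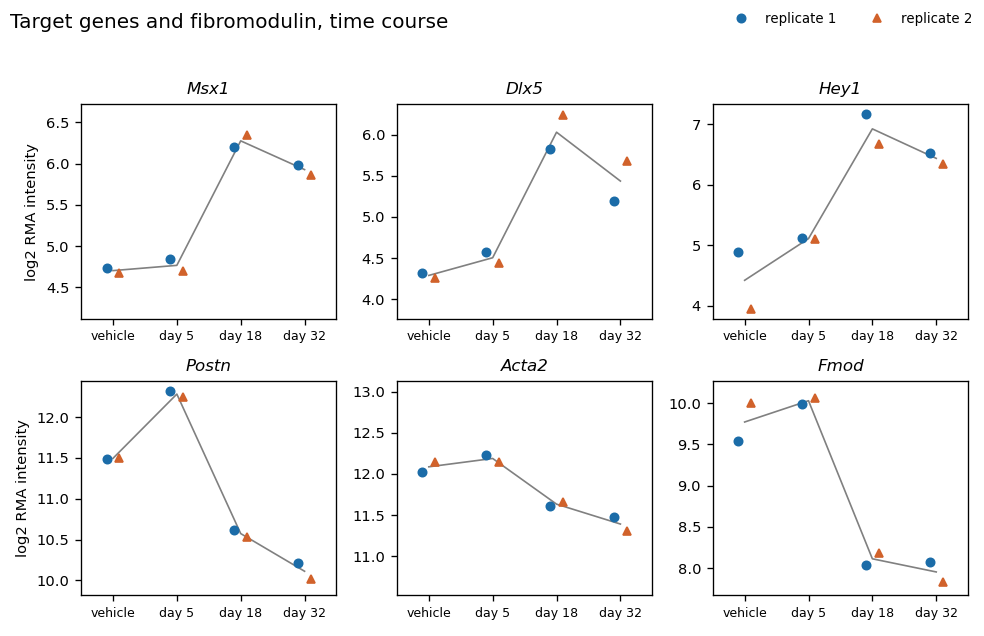
Log2 RMA intensity (vertical axes) of 6 genes on each array of the time course (horizontal axes: vehicle, then days after tamoxifen), with circles for replicate 1, triangles for replicate 2 and lines through the means. Msx1, Dlx5 and Hey1, targets of BMP, are highest at day 18, while Postn, Acta2 and Fmod are lowest at day 18 and day 32.

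In the rescue experiment 4 pathway genes passed the test with all 10 arrays in the fit: Bmpr1b, Tgfbr1, Grem1 and Acvr1. Against control, 2 of the 43 genes rose and none fell in Ezh2 post-rescue cells (0.51% and 0.197% of all genes), none passed in Ezh1 pre-rescue cells (0.0106%) or Ezh2 pre-rescue cells (0%), and 2 rose and none fell in Ezh2 null cells (1.2% and 0.755%). At an unadjusted p below 0.05 the pathway genes numbered 3 in Ezh1 pre-rescue cells (9.76% of all genes) and 6 in Ezh2 pre-rescue cells (10.2%). Against Ezh2 null, 1 rose and 1 fell in Ezh2 post-rescue cells (0.191% and 0.409% of all genes), none rose and 2 fell in Ezh1 pre-rescue cells (0.861% and 1.44%), and 1 rose and 2 fell in Ezh2 pre-rescue cells (3.15% and 4%). Between Ezh1 pre-rescue and Ezh2 pre-rescue cells no pathway gene passed (0.00531% of all genes did), and 1 had an unadjusted p below 0.05 (1.12% of all genes). Between Ezh2 post-rescue and Ezh2 pre-rescue cells 2 rose and none fell (0.574% and 0.308%). The comparisons share their control or Ezh2 null arrays, and the fit took the replicate number as a block, since the methods name a batch between first and second replicates. These counts moved with single arrays. With 1 array left out they ran from 0 to 14 for Ezh2 pre-rescue and from 0 to 7 for Ezh1 pre-rescue against Ezh2 null, lowest without Ezh2 pre-rescue replicate 2 and without Ezh1 pre-rescue replicate 1, and highest without either control array. The median change of the 43 genes lay between -0.16 (Ezh2 post-rescue against Ezh2 pre-rescue) and 0.08 (Ezh1 pre-rescue against control), where the medians over all genes lay between -0.03 and 0.04.

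Bmpr1b measured 7.48 and 7.36 in Ezh2 post-rescue cells, 5.61 and 5.90 in Ezh1 pre-rescue cells, 5.81 and 5.67 in Ezh2 pre-rescue cells, 7.14 and 7.35 in Ezh2 null cells, and 6.01 and 5.66 in control cells. The Ezh2 post-rescue and Ezh2 null arrays formed a high set above 7, and both pre-rescues overlapped control. It was higher than in control by 1.59 ± 0.15 in Ezh2 post-rescue cells (3.00-fold, adjusted p = 0.00522) and by 1.41 ± 0.15 in Ezh2 null cells (2.66-fold, adjusted p = 0.00708). Ezh2 post-rescue and Ezh2 null cells differed by 0.17, with a 95% interval from -0.18 to 0.53 and an adjusted p of 0.698. Against Ezh2 pre-rescue cells Bmpr1b was 1.68 ± 0.15 higher in Ezh2 post-rescue cells (adjusted p = 0.00611), a call lost without either Ezh2 pre-rescue array or Ezh2 post-rescue replicate 1 (at most 0.106).

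In Ezh1 pre-rescue cells Bmpr1b differed from control by -0.08 (95% interval -0.43 to 0.28) and in Ezh2 pre-rescue cells by -0.09 (-0.45 to 0.26), and it lay below Ezh2 null by 1.49 ± 0.15 and 1.50 ± 0.15 (-1.49 and -1.50, adjusted p = 0.00874 and 0.0049). The 2 pre-rescues differed from each other by 0.01 (95% interval -0.34 to 0.37). The rise in Ezh2 null cells was kept in all 16 alternatives (adjusted p at most 0.0349). The call in Ezh2 post-rescue cells was lost without either of its arrays (at most 0.101), and the falls against Ezh2 null without Ezh1 pre-rescue replicate 1 (0.0822) and without Ezh2 pre-rescue replicate 2 (0.0715).

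Tgfbr1 took another course after Ezh2 was put back. It measured 8.20 and 7.98 in Ezh2 post-rescue cells, 8.16 and 8.21 in Ezh1 pre-rescue cells, 7.79 and 7.79 in Ezh2 pre-rescue cells, 8.93 and 9.10 in Ezh2 null cells, and 8.20 and 8.24 in control cells. Only the Ezh2 null arrays stood above control, by 0.80 ± 0.10 (1.74-fold, adjusted p = 0.0115), a call lost without Ezh2 null replicate 2 (adjusted p = 0.0653). In Ezh2 post-rescue cells it was 0.92 ± 0.10 below Ezh2 null (-0.92, adjusted p = 0.0142) and differed from control by -0.13 (95% interval -0.36 to 0.11).

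In the pre-rescues Tgfbr1 lay below Ezh2 null by 0.83 ± 0.10 in Ezh1 pre-rescue cells (-0.83, adjusted p = 0.0143) and by 1.22 ± 0.10 in Ezh2 pre-rescue cells (-1.22, adjusted p = 0.00284). Leaving out Ezh2 null replicate 2, or either array of the rescue, ended the calls for Ezh2 post-rescue and Ezh1 pre-rescue cells (adjusted p at most 0.111 and 0.157), and leaving out Ezh2 pre-rescue replicate 2 ended that for Ezh2 pre-rescue cells (0.0547). Ezh1 pre-rescue and Ezh2 pre-rescue cells differed by 0.39 ± 0.10, with no overlap, but an adjusted p of 1 (unadjusted p = 0.00538). Against control the change in Ezh2 pre-rescue cells was -0.43 (95% interval -0.66 to -0.19, adjusted p = 0.287).

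Grem1 was high in Ezh2 post-rescue cells, at 6.97 and 7.73. It measured 5.04 and 5.08 in Ezh1 pre-rescue cells, 4.97 and 4.94 in Ezh2 pre-rescue cells, 5.04 and 5.12 in Ezh2 null cells, and 5.13 and 4.82 in control cells. The Ezh2 post-rescue arrays were the only ones above the array median, and they stood 0.77 apart, the widest gap of the 5 groups. Grem1 was higher in Ezh2 post-rescue cells by 2.37 ± 0.22 against control (5.18-fold, adjusted p = 0.00465), by 2.27 ± 0.22 against Ezh2 null (adjusted p = 0.0118) and by 2.39 ± 0.22 against Ezh2 pre-rescue (adjusted p = 0.0059). Only the last of these was lost in any alternative, without either Ezh2 pre-rescue array (adjusted p at most 0.102). Ezh2 null cells differed from control by 0.10 (95% interval -0.40 to 0.60).

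Acvr1 was the fourth gene. It measured 9.44 and 9.35 in Ezh2 pre-rescue cells and 8.81 and 8.92 in Ezh2 null cells, a rise of 0.53 ± 0.12 (adjusted p = 0.0399), which was lost when any of 8 arrays, those of every group but control, was left out (adjusted p at most 0.215).

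**Figure D4:**
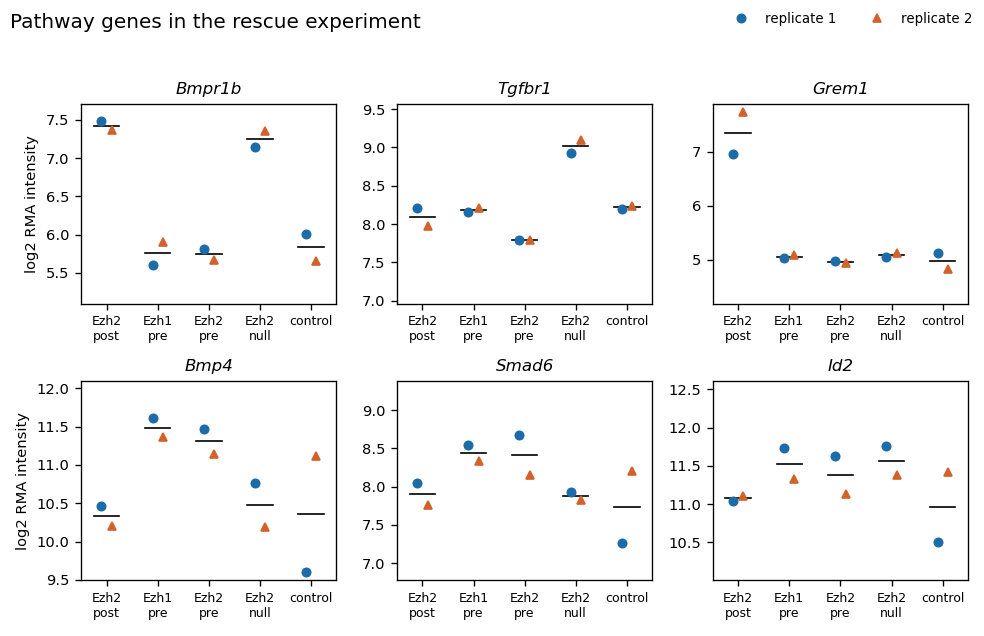
Log2 RMA intensity (vertical axes) of 6 pathway genes on each array of the rescue experiment, with Ezh2 post-rescue, Ezh1 and Ezh2 pre-rescue, Ezh2 null and control cells from left to right. Circles are replicate 1, triangles replicate 2 and bars the mean of 2 arrays. Bmpr1b is high in Ezh2 post-rescue and Ezh2 null cells, Tgfbr1 in Ezh2 null and Grem1 in Ezh2 post-rescue cells, while the control replicates of Bmp4, Smad6 and Id2 lie far apart.

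The control arrays disagreed with each other on several pathway genes. Control replicates 1 and 2 measured 9.61 and 11.11 for Bmp4, 7.26 and 8.20 for Smad6, 10.51 and 11.42 for Id2, 8.17 and 8.95 for Id3, and 6.60 and 7.26 for Smad7, each time with replicate 2 the higher. In Ezh2 null and both kinds of pre-rescue cells replicate 2 was the lower for each of these genes, and in Ezh2 post-rescue cells the sign differed by gene. Replicate 2 minus replicate 1 was -0.59 for Smad7 and -0.60 for Id3 in Ezh1 pre-rescue cells, and -0.69 and -0.48 in Ezh2 pre-rescue cells. In control, 7 of the 43 genes had replicates over 0.5 apart (4.81% of all genes), as had 4 in Ezh2 null cells (4.05%). In the other 7 groups of both experiments 0 to 4 pathway genes did, and at most 1.19% of all genes. The marker lists differed between the same arrays: the mean of the 9 proliferation markers was 10.50 on control replicate 1 and 10.09 on control replicate 2, and that of the 12 fibroblast markers 9.24 and 9.55. Their part in these gaps was not tested.

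Bmp4 measured 10.47 and 10.20 in Ezh2 post-rescue cells, 11.61 and 11.36 in Ezh1 pre-rescue cells, 11.46 and 11.15 in Ezh2 pre-rescue cells, and 10.77 and 10.19 in Ezh2 null cells. The 4 pre-rescue arrays were the highest of the 10, but their distance from control, 1.12 ± 0.44 for Ezh1 pre-rescue and 0.95 ± 0.44 for Ezh2 pre-rescue cells, did not pass (adjusted p = 0.457 and 0.521). Without control replicate 2, Bmp4 changed against control by 2.05 and 1.88 in the pre-rescues, Ezh1 first. Likewise Smad6 changed by 1.32 and 1.3, Id2 by 1.17 and 1.02, and Smad3 by 0.67 and 0.75. Tgfb3 changed by 0.64 in Ezh2 pre-rescue cells. That fit kept 1 control array, so its tests do not measure the spread of control, where the Bmp4 arrays stood 1.51 apart. Without control replicate 1 no pathway gene passed in either pre-rescue against control. Against Ezh2 null, Bmp4 stood 1.01 higher in Ezh1 pre-rescue cells and 0.83 higher in Ezh2 pre-rescue cells, which passed in the fits without either control array (1.01 ± 0.10 and 0.83 ± 0.10, adjusted p = 0.00665 and 0.00559) but not with both. In Ezh2 null cells Bmp4 changed against control by -0.82 in the fit without control replicate 1 and by 1.05 in that without control replicate 2. Its direction against control thus depended on the array kept. The fits with 1 control array include the replicate block, so their changes from control are not plain distances from that array.

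The genes that moved most after tamoxifen were not all different in Ezh2 null cells. Smad9 measured 8.02 and 8.02 in Ezh2 null cells against 7.33 and 7.73 in control cells, a difference of 0.49 ± 0.18 that did not pass (adjusted p = 0.247). Chrdl1 and Bambi lay below control by 0.56 ± 0.22 and 0.55 ± 0.25 (-0.56 and -0.55, adjusted p = 0.28 and 0.347). Tgfb2 measured 10.02 and 9.76 in Ezh2 null cells and 10.05 and 10.48 in control cells, and Id4 measured 6.02 and 6.05 in Ezh2 null cells against 5.69 and 5.85 in control cells. The arrays of the time course and the rescue experiment had different scales and may have been normalised apart, so no test was made of the difference between them.

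Among the further pathway genes, Fmod was the only 1 of 55 that changed in Ezh2 null cells against control. It measured 8.48 and 8.19 in Ezh2 post-rescue cells, 9.52 and 9.71 in Ezh1 pre-rescue cells, 10.19 and 10.54 in Ezh2 pre-rescue cells, 7.29 and 6.47 in Ezh2 null cells, and 9.78 and 10.40 in control cells. It was 9.23-fold lower in Ezh2 null cells than in control (-3.21 ± 0.30, adjusted p = 0.00427), and higher than in Ezh2 null by 2.73 ± 0.30 with Ezh1 and 3.48 ± 0.30 with Ezh2 in the pre-rescues (adjusted p = 0.0111 and 0.00284). In Ezh2 post-rescue cells it lay between, at 1.46 ± 0.30 above Ezh2 null (adjusted p = 0.0877) and 1.75 ± 0.30 below control (-1.75, adjusted p = 0.0551), neither of which passed, and it was lower than in Ezh2 pre-rescue cells by 2.03 ± 0.30 (-2.03, adjusted p = 0.0319), a call lost in 6 of 16 alternatives, each without 1 array of any rescue group (adjusted p at most 0.278). The calls in the pre-rescues were lost without either Ezh1 pre-rescue array (adjusted p at most 0.0968) and without Ezh2 pre-rescue replicate 2 (0.0547).

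Of the 7 BMP targets, Hey1 (0.85 ± 0.13, adjusted p = 0.0194) and Msx1 (0.73 ± 0.11, adjusted p = 0.0212) rose in Ezh2 null cells against control, where 1.2% of all genes rose. The call on Hey1 was lost without control replicate 2, Ezh2 null replicate 2 or either Ezh2 post-rescue array (adjusted p at most 0.0641), and that on Msx1 without control replicate 2 or either Ezh2 pre-rescue array (at most 0.0605). In Ezh2 pre-rescue cells Msx1 was lower than in Ezh2 null by 0.75 ± 0.11 and Hey1 by 0.68 ± 0.13 (-0.75 and -0.68, adjusted p = 0.0146 and 0.0259), calls lost without either Ezh2 pre-rescue array and, for Hey1, also without Ezh2 null replicate 2 or either Ezh2 post-rescue array (adjusted p at most 0.125 and 0.204). Of the 14 TGF beta targets none passed in Ezh2 null cells against control (1.2% of all genes rose and 0.755% fell). In Ezh2 pre-rescue against Ezh2 null cells 6 rose (3.15% of all genes did): Ccn2, Acta2, Col1a2, Col3a1, Cnn1 and Tagln. The widest changes were those of Ccn2 (a matricellular protein, 1.67 ± 0.35, adjusted p = 0.0337) and Acta2 (1.12 ± 0.27, adjusted p = 0.0472), and the smallest adjusted p were those of Tagln (transgelin, 0.56 ± 0.08, adjusted p = 0.0122, below the array median on all 10 arrays) and Col1a2 (collagen, 0.82 ± 0.12, adjusted p = 0.0154). None of the 6 calls remained without Ezh2 null replicate 2 or without either Ezh2 pre-rescue array (adjusted p at most 0.199, 0.299, 0.123 and 0.141 for these 4 over all alternatives). Col1a1, a collagen gene, measured 9.79 and 9.32 in Ezh2 post-rescue cells and 7.46 and 7.97 in control cells, a rise of 1.84 ± 0.19 (adjusted p = 0.00724) that was lost without Ezh2 post-rescue replicate 1 (0.0778).

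The mean of the 12 fibroblast markers was 9.35 to 9.40 in Ezh2 post-rescue cells, 9.57 to 9.61 in Ezh1 pre-rescue cells, 9.65 to 9.81 in Ezh2 pre-rescue cells, 8.74 to 9.10 in Ezh2 null cells and 9.24 to 9.55 in control cells, lowest in the Ezh2 null cells, where Fmod was lowest too. The mean of the 9 proliferation markers was 10.17 to 10.45 in Ezh2 post-rescue cells, 10.04 to 10.08 in Ezh1 pre-rescue cells, 9.98 to 10.00 in Ezh2 pre-rescue cells, 10.19 to 10.71 in Ezh2 null cells and 10.09 to 10.50 in control cells. The part of either list in these changes was not tested. With all 10 arrays, the other 39 of the 43 pathway genes passed in none of the 9 comparisons of the rescue experiment. Without either control array 14 of the 43 passed in Ezh2 pre-rescue and 7 in Ezh1 pre-rescue cells against Ezh2 null (13.7% and 8.59% of all genes), among them Bmp4, Chrdl1 and Smad6 in both. In all, 13 of the 43 lay below the array median on all 10 arrays.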

How the data were processed

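The deposited values were log2 intensities, 1 table for all 18 arrays. The authors made them with the RMA method of the oligo package (background correction, quantile normalisation and summary of probes, with its annotation package for these arrays), so that they are relative within an experiment. The methods state that rescue data were corrected for a batch between first and second replicates with limma; whether the deposited log2 values carry this correction is not stated. Groups came from the sample titles. The table has 28440 probe sets, 21217 with 1 gene symbol, 1881 with several and 5342 with none in the platform annotation. Of 18820 genes, 1386 had more than 1 probe set, and the one with the highest mean over all arrays was kept. No low values were removed.

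Each experiment was fitted alone with limma 3.58.1 (R 4.3.3), on 8 arrays without and 10 arrays with the replicate number as a block, each with 4 residual degrees of freedom. Tests were two-sided, adjusted by Benjamini-Hochberg over all 18820 genes, with a threshold of 0.05. The methods name RankProduct, which was not run. Values per array are given for members with a 2-fold change in any comparison and for up to 5 more per comparison with the smallest adjusted p, and for the other lists up to 4 genes in each direction per list and comparison. Members and gene lists were chosen with earlier results of these data known. Arrays have no read depth: 2 arrays a group limit the precision. Sequences came from RefSeq (GRCm38.p6).

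Replicate numbers did not pair the time course arrays: correlations of deviations were -0.07 to 0.055 over 6 pairs of groups, and -0.429 to 0.544 over 10 pairs in the rescue experiment. Of these 10, 6 were negative. The mean replicate difference over the rescue groups had a standard deviation of 0.0629 over genes, below the 0.0879 of unpaired arrays. These values thus showed no shift shared by all second replicates. Whether a correction before deposit removed one was not tested.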

Additional observations from a re-analysis of the deposited data

Results flagged for a closer look

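Between day 5 and day 18 after tamoxifen, 5 genes changed by 2-fold or more, by a test of the difference between the 2 times: Tgfb1 (1.04 on the log2 scale), Id4 (1.50), Tgfb2 (-1.36), Bmp6 (-1.47) and Ltbp1 (-1.56). The share of all genes with such a change is not given here. Tgfb1, Tgfb2 and Bmp6 were on opposite sides of vehicle at the 2 times.

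Bmp1 lay on opposite sides of its reference in the 2 experiments, at -0.27 for day 32 against vehicle and 0.09 (0.089) for Ezh2 null against control, the second of which did not pass. The difference between the experiments was not tested.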

How the results depend on the processing

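With the replicate number as a block in the time course, 14, 19, 16, 19 and 3 pathway genes changed at day 5, day 18 and day 32 against vehicle, day 18 against day 5 and day 32 against day 18, against 14, 21, 17, 20 and 3 without it; the calls lost were Bmp1 at day 18 and day 32, Smad7 at day 18 and Acvr2b at day 18 against day 5. Over 16 alternatives for each rescue comparison and 14 for each of the time course (13 for genes that the filter on low values removed), none of the 88 calls on pathway genes and 126 on the other lists changed direction, and 53 and 70 of them passed under all. Bmp4 in Ezh2 null against control, which was no call, turned with the control array left out (-0.82 without replicate 1, 1.05 without replicate 2). For Ezh2 pre-rescue against Ezh2 null, the 3 genes (7.14% of all genes changed) became 7 with no replicate block (10.1%), 7 under median centring (8.09%) and 5 under quantile normalisation (9.4%). For Ezh2 post-rescue against Ezh2 pre-rescue the 2 (0.882% of all genes) became 4 under median centring (1.59%). The cause was not tested. With 1 array left out at a time, where the lone array of a group is assumed to vary like the other groups, the counts ranged from 11 to 14 (day 5), 14 to 22 (day 18), 13 to 20 (day 32), 15 to 21 (day 18 against day 5) and 0 to 3 (day 32 against day 18). In the rescue experiment they ranged from 1 to 4 (Ezh2 post-rescue), 0 to 4 (Ezh1 pre-rescue), 0 to 5 (Ezh2 pre-rescue) and 1 to 6 (Ezh2 null) against control, from 1 to 4, 0 to 7 and 0 to 14 for the 3 rescues against Ezh2 null, were 0 to 0 for Ezh1 against Ezh2 pre-rescue and ranged from 0 to 5 for Ezh2 post-rescue against Ezh2 pre-rescue. Without either control array, 14 genes changed in Ezh2 pre-rescue and 7 in Ezh1 pre-rescue cells against Ezh2 null (13.7% and 8.59% of all genes), comparisons that do not use control except through the pooled spread. With 2 arrays a group the precision is limited, and genes below the array median have little signal over background.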
